A study of Mus musculus with 24 samples.

Results

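The 10 genes described here encode proteins of the acute-phase response and of neutrophil granules: Lcn2, Serpina3n, S100a8, S100a9, Saa3, A2m, Hp, Ltf, Ngp and Camp. They were taken by name from the array's probe annotation, which held 1 probe set with a single gene symbol for each of them, and they make up 10 of the 18819 genes tested. RNA came from mouse ventricle, with 6 arrays in each of 4 groups. Newborn hearts (labelled P1-2) and young hearts (labelled P30) came from wild type (WT) mice and from double knockout (KO) mice, all on a C57BL/6J background. In KO mice a floxed gene was recombined by Cre under Nkx2.5 control, so that this loss was limited to the heart, whereas the other targeted gene was absent from every tissue. Per the study's methods each group held 3 males and 3 females, remnant protein of the floxed gene was still seen in neonatal KO heart, and the RNA of each group came from 6 hearts. The comparison asks whether the double knockout goes along with other levels of these transcripts at either age, and how the levels differ between the ages.

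The acute-phase response is a change in the secretion of plasma proteins after injury or infection. Cytokines of the IL-6 and IL-1 families act on hepatocytes and other cells through STAT3, C/EBP factors and NF-kB. They raise transcripts of protease inhibitors such as Serpina3n, of the haemoglobin carrier haptoglobin (Hp), of serum amyloid A (Saa3) and of the siderophore-binding lipocalin Lcn2. Neutrophils store a second set of antimicrobial proteins that they make while maturing in the marrow: the calgranulins S100a8 and S100a9 fill the cytosol, and lactoferrin (Ltf), neutrophilic granule protein (Ngp), the cathelicidin Camp and Lcn2 are packed into granules. Several of these genes are also transcribed in surface epithelia, liver or fat. In tissue RNA, fewer cells of a type and less RNA per cell cannot be told apart.

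On the GRCm38.p6 annotation S100a8 (chr3:90669071-90670034) and S100a9 (chr3:90692630-90695721) are neighbours, and Camp (chr9:109847377-109849456), Ngp (chr9:110419808-110423012) and Ltf (chr9:111019292-111042766) lie on chromosome 9. Lcn2 is at chr2:32384637-32387739, A2m at chr6:121636165-121679238, Saa3 at chr7:46711998-46719615, Hp at chr8:109575128-109579172 and Serpina3n at chr12:104406646-104414334. RefSeq promoters, 250 bases before to 50 bases after an annotated start, were held for 8 of the 10 genes, not for A2m and Hp. For Saa3 (window chr7:46715627-46715926, minus strand) and Serpina3n (chr12:104406458-104406757, plus strand) the start used differs from the start of the interval given above. Those printed here, 5′ to 3′ on the gene's strand, belong to the 5 genes with a promoter entry whose signal fell with age in KO hearts. They lie at chr2:32387690-32387989 (minus strand, Lcn2), chr3:90668821-90669120 (plus strand, S100a8), chr3:90695672-90695971 (minus strand, S100a9), chr9:110419558-110419857 (plus strand, Ngp) and chr9:111019042-111019341 (plus strand, Ltf). Capitals mark matches to the C/EBP letters TTGCNNAA on either strand.
Lcn2: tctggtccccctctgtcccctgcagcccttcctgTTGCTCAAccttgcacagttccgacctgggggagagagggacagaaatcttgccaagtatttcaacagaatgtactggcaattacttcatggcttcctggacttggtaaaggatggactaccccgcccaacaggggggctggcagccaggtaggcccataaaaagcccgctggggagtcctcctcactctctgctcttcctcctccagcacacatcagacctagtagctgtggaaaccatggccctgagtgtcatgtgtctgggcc
S100a8: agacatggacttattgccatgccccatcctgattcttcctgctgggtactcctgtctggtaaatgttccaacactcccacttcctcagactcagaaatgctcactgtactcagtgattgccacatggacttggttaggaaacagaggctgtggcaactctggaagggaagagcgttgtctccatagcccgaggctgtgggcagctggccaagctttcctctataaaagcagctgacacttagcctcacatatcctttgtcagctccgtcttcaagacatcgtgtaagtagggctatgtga
S100a9: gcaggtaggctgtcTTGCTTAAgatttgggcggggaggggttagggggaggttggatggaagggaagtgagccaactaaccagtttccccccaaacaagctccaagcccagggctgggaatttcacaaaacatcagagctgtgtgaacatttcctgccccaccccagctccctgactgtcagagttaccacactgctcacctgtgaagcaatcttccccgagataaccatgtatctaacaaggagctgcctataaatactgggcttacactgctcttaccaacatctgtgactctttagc
Ngp: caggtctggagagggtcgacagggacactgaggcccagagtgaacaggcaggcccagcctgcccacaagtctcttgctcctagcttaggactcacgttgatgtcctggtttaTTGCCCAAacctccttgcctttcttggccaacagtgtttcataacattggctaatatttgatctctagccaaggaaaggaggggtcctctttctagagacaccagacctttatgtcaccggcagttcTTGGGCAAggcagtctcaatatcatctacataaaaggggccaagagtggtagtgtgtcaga
Ltf: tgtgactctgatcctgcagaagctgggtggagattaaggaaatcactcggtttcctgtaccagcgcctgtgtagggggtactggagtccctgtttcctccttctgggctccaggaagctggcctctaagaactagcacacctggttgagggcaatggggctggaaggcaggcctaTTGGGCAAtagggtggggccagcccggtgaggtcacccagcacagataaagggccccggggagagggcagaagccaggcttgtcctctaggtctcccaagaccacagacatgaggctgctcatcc
C/EBP factors, C/EBP epsilon among them, switch on granule genes in maturing neutrophils. The C/EBP letters were found in 5 of the 8 promoters: in Lcn2 (216 bases before the start), S100a9 (236 bases before), Ltf (75 bases before), Saa3 (99 bases before the start used for its window) and at 2 places in Ngp (138 and 11 bases before). S100a8, Serpina3n and Camp held no match. Among all 32851 promoters of the same length, 10.8% held one. The STAT letters TTCNNNGAA, also read on both strands, were in 0 of the 8 promoters and in 8.30% of all. The NF-kB pattern was in 1 of the 8, Camp, and in 8.46% of all. None of these matches overlapped another. A match describes letters in the window and is not a measured binding site.

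All values are log2 signals, so that a difference of 1 is a change of 2-fold. As a floor, the 990 olfactory receptor genes on the array, which a heart should lack, had a median level of 2.38 and a 95th percentile of 3.26. Saa3 lay under the array's own 95th percentile of olfactory receptors on all 24 arrays, at 2.2 to 3.07, and its signal cannot be told from background. Ngp was under that line on 12 arrays, Ltf on 6, S100a8 on 5, Hp on 3 and Serpina3n on 1, whereas Lcn2, S100a9, A2m and Camp were above it on 24 of 24. Probe sets differ in brightness, so levels are compared only between groups and never between genes.

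Several arrays stood apart by transcripts of other tissues. The mean of 11 hepatocyte markers was 6.38 on newborn KO 1 and 7.0 on newborn KO 2, against 3.70 to 3.98 on the other 10 newborn arrays, and Alb reached 9.93 and 10.4. The mean of 12 airway epithelial markers, a list chosen after the data were seen, was 8.16 on newborn KO 6 and 5.19 on newborn KO 2, and no other newborn array was above 3.52. Scgb3a1, a secretoglobin of airway epithelium, was 12.5 on newborn KO 6. Among young arrays the airway mean was highest on young WT 2, at 4.26, against at most 3.55 on the others, and Scgb3a1 was 7.53 there. The mean of 8 adipocyte markers was 8.0 on young WT 2, 7.76 on young KO 2 and 6.52 on young KO 4, against 4.82 to 5.02 on the other 5 WT arrays. On young KO 1, 5 and 6 it was 5.72, 5.74 and 5.44, also above those WT arrays, and on young KO 3 it was 5.03. Adipoq, an adipocyte hormone, was 5.45, 5.31 and 4.61 on young KO 1, 5 and 6, against 3.30 to 3.74 on the same 5 WT arrays, so that leaving out the 3 highest arrays does not remove adipocyte transcripts from the KO group. Newborn KO 6 had the highest adipocyte mean of the newborn arrays, 5.59, against at most 5.16 on the others. Adipoq was 6.15 on that array, against 3.09 to 4.54 in newborn WT hearts. Atrial markers, as a mean of 14 genes, ran from 6.35 to 9.14 (median 6.62) in young WT and from 6.69 to 9.57 (median 8.71) in young KO hearts, in tissue labelled as ventricle. The median mean of 12 epicardial and mesothelial markers was 5.82 at P30 in WT and 6.65 in KO animals, and that of 12 fibroblast markers 8.19 and 9.02. None of the single markers of these 4 cell types passed the KO test in young hearts. The newborn WT and KO arrays numbered 4 deviated from their group means in opposite directions over all genes, with a correlation of -0.44. The part of these transcripts in the results below was not tested, and the affected values are given with and without these arrays. Ventricular cardiomyocyte markers were high on every array, with a mean of 12.1 to 12.5 over 12 genes.

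**Figure D1:**
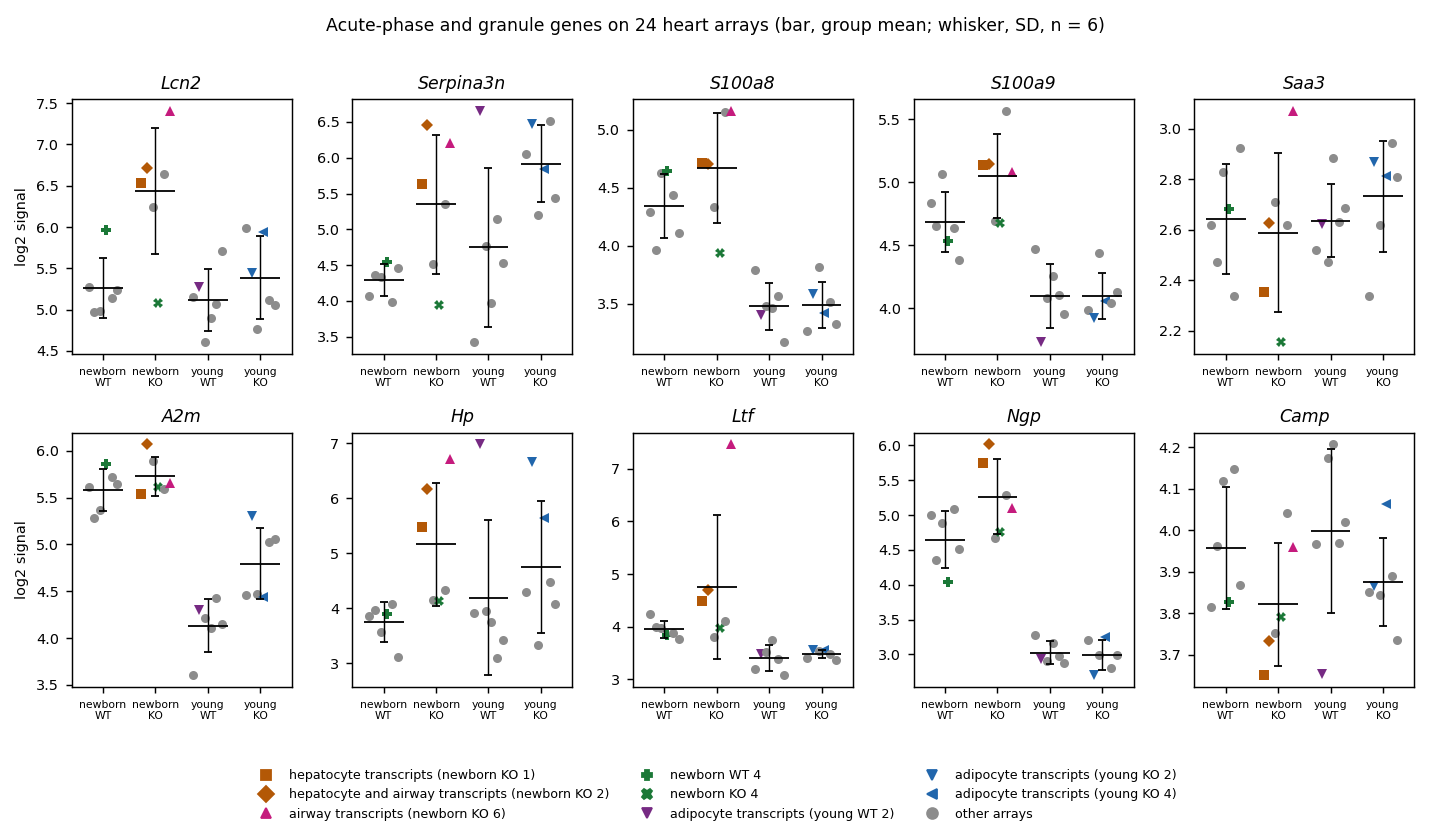
Log2 signal of the 10 genes on each of the 24 arrays, by group; black lines are group means with SD (n = 6), and symbols mark the arrays with hepatocyte, airway or adipocyte transcripts and the newborn arrays numbered 4. S100a8, Ngp, Ltf and A2m of young WT hearts lie wholly below newborn WT hearts, and the highest Ltf value, 7.47, is newborn KO 6.

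Ngp, S100a8, S100a9 and A2m fell between birth and P30 in both genotypes, whereas the granule genes Ltf and Lcn2 passed the test in KO and missed it in WT hearts, and Camp passed in neither. In WT hearts 4 of the 10 genes fell with age (A2m, Ngp, S100a8 and S100a9), 0 rose, and the median difference of the 10 was -0.35. Of all genes 27.9% fell and 19.2% rose in that comparison, with a median difference of 0.0024. In KO hearts 6 of the 10 fell (the same 4, Lcn2 and Ltf), 0 rose, and their median was -0.94, while 25.0% of all genes fell and 34.0% rose, with a median of 0.10. Median centring of the arrays moved the median of all genes to 0.26 in WT and 0.27 in KO hearts and turned the split of calls to 9842 higher and 2989 lower in WT and 10029 and 3011 in KO, against 3612 and 5242, and 6398 and 4712, as deposited. The falls of A2m, Ngp and S100a8 in both genotypes, and of S100a9 in KO hearts, kept their direction and passed the test with centring and in the other alternatives.

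Ngp is a granule protein related to cathelicidins. Its signal in newborn WT hearts was 4.05 at lowest, 4.70 at the median and 5.09 at highest, and in young WT hearts 2.88, 2.95 and 3.28. In newborn KO hearts it was 4.67, 5.20 and 6.02, and in young KO hearts 2.70, 2.99 and 3.25. The ages did not overlap in either genotype, and each of the 12 young arrays was under its own 95th percentile of olfactory receptors, so that the size of the fall has only a lower bound. Set against that line, with all arrays, Ngp was at least 2.40-fold lower in young than in newborn WT hearts. In KO hearts it was at least 3.55-fold lower. The highest newborn KO values, 6.02 and 5.74, were KO 2 and KO 1, the arrays with hepatocyte transcripts. Without newborn KO 1, 2 and 6 the measured KO difference was -1.92, and no bound was derived for that setting. The limma test is of the measured differences with all arrays and not of the bounds (adjusted p = 1.42e-07 in WT and 6.56e-10 in KO hearts).

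S100a8 and S100a9 form calprotectin, the most abundant protein complex of the neutrophil cytosol. S100a8 ran from 3.97 to 4.64 (median 4.36) in newborn WT, from 3.17 to 3.79 (median 3.47) in young WT, from 3.94 to 5.16 (median 4.71) in newborn KO and from 3.27 to 3.81 (median 3.47) in young KO hearts. S100a9 ran from 4.38 to 5.06 (median 4.65), from 3.73 to 4.47 (median 4.09), from 4.68 to 5.56 (median 5.11) and from 3.92 to 4.44 (median 4.05) in the same order. Every young array of S100a8 was below every newborn array of its genotype, and for S100a9 this held in KO hearts, with 1 overlapping array in WT. S100a8 fell by 0.87 in WT (SE 0.17, 1.82-fold, adjusted p = 0.000106) and by 1.18 in KO hearts (SE 0.17, 2.26-fold, adjusted p = 2.13e-06). In young hearts S100a8 was under the array's 95th percentile of olfactory receptors on 2 of 6 WT and 3 of 6 KO arrays. That limits the size of its falls. S100a9 fell by 0.58 in WT (SE 0.14, 1.5-fold, adjusted p = 0.00112) and by 0.95 in KO hearts (SE 0.14, 1.93-fold, adjusted p = 3.74e-06). Without newborn KO 1, 2 and 6 the KO differences were -0.99 for S100a8 (adjusted p = 0.000324) and -0.88 for S100a9 (adjusted p = 0.000435). With median centring the S100a9 difference in WT was -0.33 and missed the threshold (adjusted p = 0.0694). Across arrays the pair moved together: their deviations from the group means correlated at r = 0.70 over 24 arrays.

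A2m is named for alpha-2-macroglobulin, a broad protease inhibitor. Its signal was 5.28 to 5.86 (median 5.63) in newborn WT, 3.6 to 4.42 (median 4.18) in young WT, 5.53 to 6.07 (median 5.63) in newborn KO and 4.44 to 5.30 (median 4.75) in young KO hearts. No young array reached a newborn array of its genotype. The fall with age was 1.45 in WT (SE 0.15, 2.73-fold, adjusted p = 1.92e-08) and 0.93 in KO hearts (SE 0.15, 1.91-fold, adjusted p = 1.56e-05). Without newborn KO 1, 2 and 6 the KO difference was -0.91 (adjusted p = 0.000505). Over the same interval the median atrial marker mean went from 8.86 to 6.62 in WT and from 8.81 to 8.71 in KO hearts, and the fibroblast mean from 9.07 to 8.19 and from 9.04 to 9.02; their part in these falls was not tested.

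Ltf and Lcn2 passed the test for age in KO hearts and missed it in WT hearts. Ltf, the iron-binding lactoferrin of granules and glandular secretions, was 3.77 to 4.23 (median 3.92) in newborn WT, 3.07 to 3.74 (median 3.43) in young WT, 3.80 to 7.47 (median 4.30) in newborn KO and 3.37 to 3.56 (median 3.5) in young KO hearts. Its ages did not overlap in either genotype. In each genotype 3 of 6 young arrays were under their 95th percentile of olfactory receptors for Ltf, which limits the size of its differences. The differences were -0.55 in WT (SE 0.37, adjusted p = 0.244) and a fall of 1.28 in KO hearts (SE 0.37, adjusted p = 0.00548). Without newborn KO 6, the array at 7.47, the WT difference of -0.55 passed the test (adjusted p = 0.000778), and without newborn KO 1, 2 and 6 the KO fall was 0.48 (adjusted p = 0.00259). Lcn2 was 4.98 to 5.96 (median 5.19) in newborn WT and 4.60 to 5.71 (median 5.11) in young WT hearts, which overlapped, with a difference of -0.15 (SE 0.28, adjusted p = 0.704). In KO hearts it was 5.08 to 7.40 (median 6.59) in newborn and 4.76 to 5.99 (median 5.28) in young hearts, and fell by 1.05 (SE 0.28, 2.07-fold, adjusted p = 0.00276). Without newborn KO 1, 2 and 6 that difference was -0.60 and missed the threshold (adjusted p = 0.110).

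The ages did not overlap, with young below newborn, for 4 of the 10 genes in WT hearts (S100a8, A2m, Ltf and Ngp) and for 5 in KO hearts (these and S100a9). Among all genes this held for 18.2% in WT and 15.1% in KO hearts. The remaining 4 genes passed the test in neither genotype. Serpina3n differed by 0.46 in WT (SE 0.42, adjusted p = 0.400) and 0.57 in KO hearts (SE 0.42, adjusted p = 0.242), Hp by 0.44 and -0.42 (SE 0.58 for both), Camp by 0.04 and 0.05 (SE 0.09) and Saa3 by -0.0073 and 0.14 (SE 0.13). With median centring Camp in WT (0.30, adjusted p = 0.0166) and Saa3 in KO hearts (0.32, adjusted p = 0.0267) passed, at values close to the shift of all genes. Without newborn KO 1, 2 and 6 Serpina3n was 1.31 higher in young KO hearts (adjusted p = 0.0235), and without the 3 arrays with the highest adipocyte means Hp in KO hearts fell by 1.12 (adjusted p = 0.0231).

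**Figure D2:**
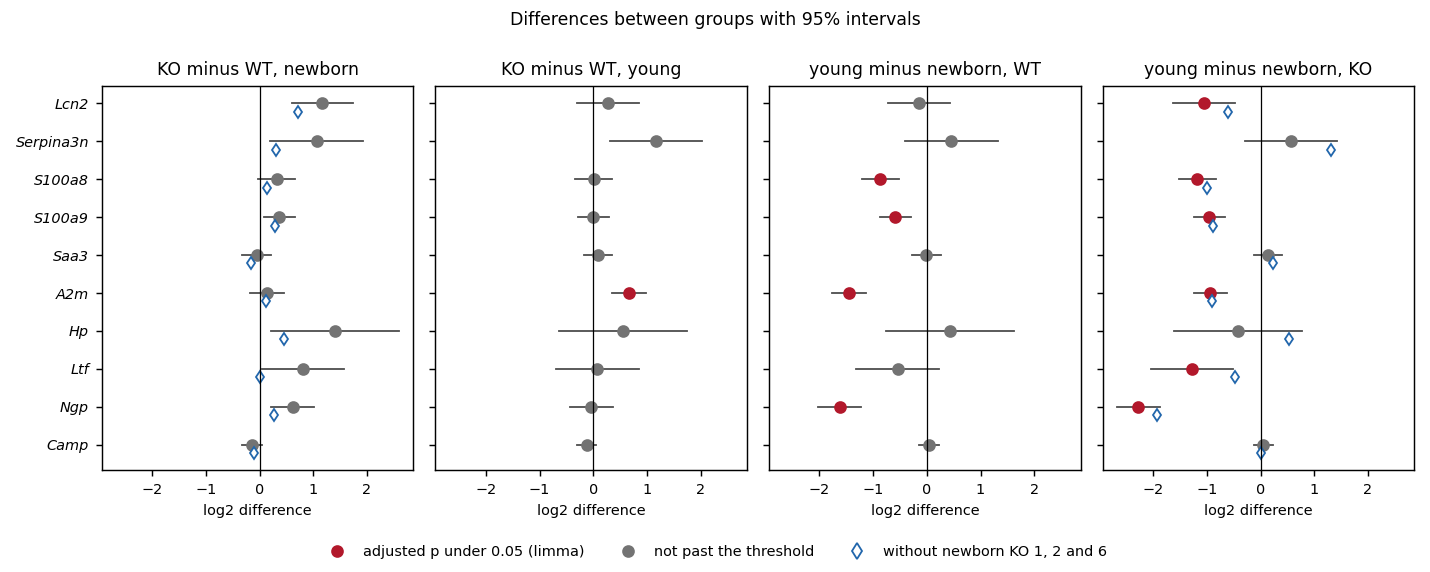
Log2 difference of each gene with its 95% interval in 4 comparisons (limma on all 24 arrays); red points passed an adjusted p under 0.05, and open diamonds give the difference without newborn KO 1, 2 and 6. The newborn KO differences of Hp, Ltf, Ngp and Serpina3n move towards 0 without these arrays, whereas the age falls of S100a8, S100a9, A2m and Ngp in KO hearts stay.

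In newborn hearts, several of these transcripts were higher on KO arrays, but 0 of the 10 genes passed the test in either direction. For Hp, Ltf and Serpina3n the highest KO arrays were those that also carried hepatocyte or airway transcripts. Ngp was highest on KO 2 and KO 1, with hepatocyte transcripts, at 6.02 and 5.74, whereas S100a9 was highest on KO 5, at 5.56. In that comparison limma called 0% of all genes, and 1707 had an unadjusted p under 0.05. Of the 10 genes, 6 were higher at an unadjusted p under 0.05 (Lcn2, Serpina3n, S100a9, Hp, Ltf and Ngp), against 1.45% of all genes, and the median difference of the 10 was 0.49, against -0.05 over all genes. Without newborn KO 1, 2 and 6 the number was 1 of 10, Lcn2, and the median 0.20. The total over all genes, in either direction, went down from 1707 to 426 in that setting. Without the newborn arrays numbered 4 the number was 7 of 10 with a median of 0.56, and the total over all genes 2626. Of the 10, Lcn2 alone passed the adjusted threshold there, where limma called 117 of all genes higher. The 10 genes share their arrays and are not independent of each other.

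Lcn2 binds bacterial siderophores and is made by neutrophils and by stressed epithelium and muscle. In newborn WT hearts it was 5.28, 4.98, 4.99, 5.96, 5.15 and 5.24 on arrays 1 to 6, and in newborn KO hearts 6.53, 6.72, 6.24, 5.08, 6.64 and 7.40. All KO arrays but number 4 were above all WT arrays, and the highest WT array was also number 4. The difference was 1.17 (SE 0.28, 2.25-fold, 95% interval 0.60 to 1.75, adjusted p = 0.278). It passed the test without newborn KO 4 (1.44, adjusted p = 0.00950), without newborn WT 4 (1.31, adjusted p = 0.0398), without both (1.58, adjusted p = 0.000523) and with array weights (1.15, adjusted p = 0.0482). Without newborn KO 1, 2 and 6 it was 0.73 (SE 0.30, adjusted p = 1.00). Newborn KO 3 and 5, at 6.24 and 6.64, were above every WT array. Their hepatocyte marker means were 3.98 and 3.77, against at most 3.94 in newborn WT hearts, and their airway means 3.42 and 3.27, against at most 3.25. Sftpc, a surfactant protein of lung, was 4.91 and 3.93 on these arrays, against at most 3.46 in newborn WT hearts, and Scgb3a1 was 5.07 and 5.26, against at most 4.66.

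Hp encodes haptoglobin, which binds free haemoglobin and is made in liver and fat. On arrays 1 to 6 it was 3.87, 3.98, 3.57, 3.90, 4.09 and 3.12 in newborn WT hearts and 5.48, 6.16, 4.15, 4.14, 4.34 and 6.72 in newborn KO hearts. The 6 KO arrays lay above the 6 WT arrays, which held for 0.0531% of all genes, but KO 3, 4 and 5 exceeded the highest WT array by a small margin and KO 1, 2 and 6 by far more. The difference was 1.41 (SE 0.58, 2.66-fold, adjusted p = 0.480), and 0.46 without KO 1, 2 and 6. KO 6, the array with the highest Hp value, had a hepatocyte marker mean of 3.76, an airway mean of 8.16 and an adipocyte mean of 5.59. Ltf was 4.49, 4.69, 3.80, 3.98, 4.10 and 7.47 on the KO arrays, against 3.77 to 4.23 in WT hearts. Its difference of 0.81 (SE 0.37, adjusted p = 0.526) was 0.01 without KO 1, 2 and 6. Pglyrp1, a peptidoglycan-binding granule protein, was 9.09 on newborn KO 6 and 4.54 to 5.01 on the other KO arrays.

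Serpina3n, a secreted inhibitor of serine proteases, was 3.98 to 4.54 (median 4.35) in newborn WT and 3.94 to 6.46 (median 5.49) in newborn KO hearts. Its 3 highest values, 6.46, 6.20 and 5.63, were KO 2, 6 and 1, and its lowest was KO 4. The difference was 1.06 (SE 0.42, adjusted p = 0.457), and 0.32 without KO 1, 2 and 6. Ngp differed by 0.62 (SE 0.19, adjusted p = 0.388), S100a9 by 0.37 (SE 0.14, adjusted p = 0.441) and S100a8 by 0.32 (SE 0.17, adjusted p = 0.583). Without those arrays they differed by 0.26, 0.29 and 0.13. KO 5, which is not among those arrays, had the highest S100a9 value, 5.56, and was at 5.16 for S100a8 and 5.30 for Ngp. KO 6 was also at 5.16 for S100a8, and the highest Ngp values, 6.02 and 5.74, were KO 2 and KO 1. A2m (0.15, SE 0.15), Saa3 (-0.06, SE 0.13) and Camp (-0.14, SE 0.09) had adjusted p-values of 0.778, 0.913 and 0.661.

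**Figure D3:**
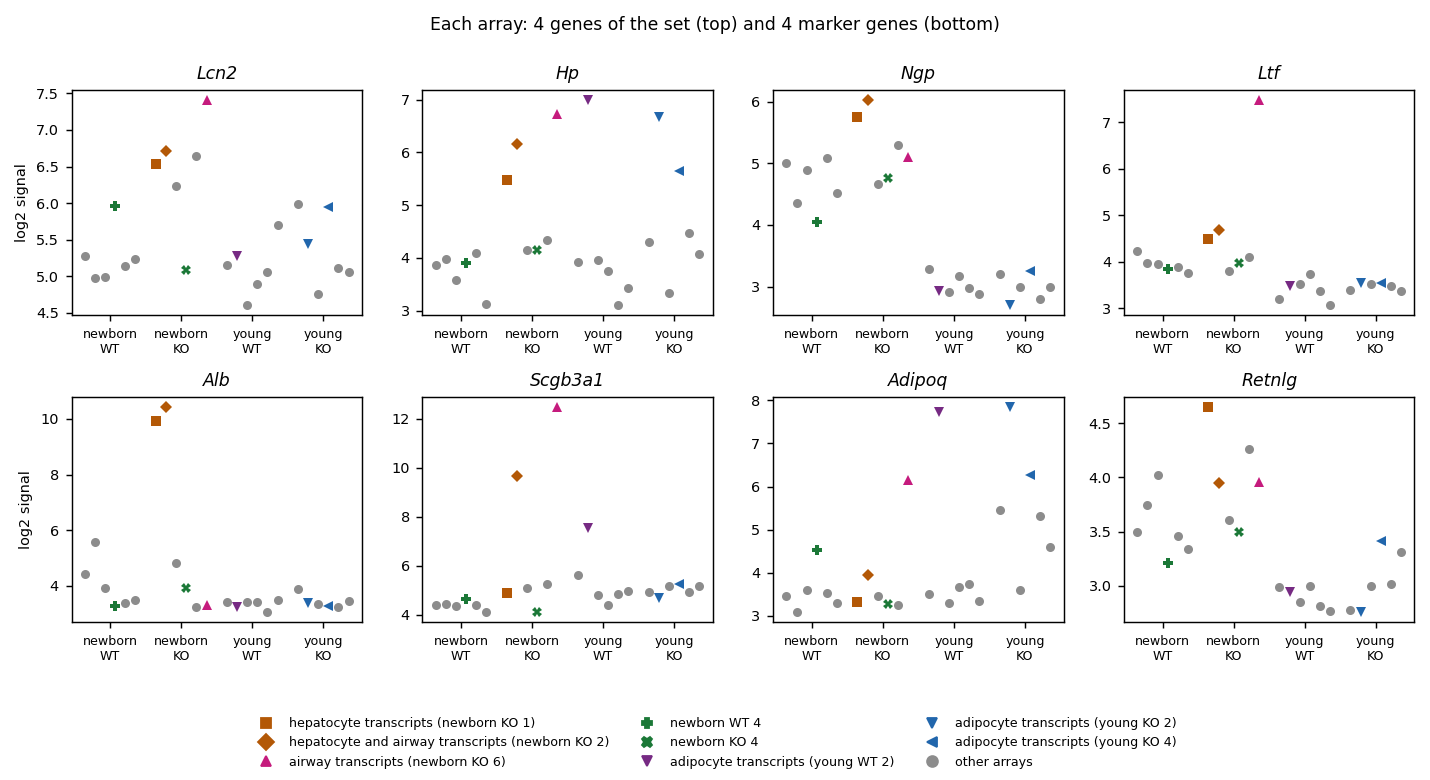
Log2 signal on each array, in 4 groups of 6, of Lcn2, Hp, Ngp and Ltf (top) and of Alb (hepatocyte), Scgb3a1 (airway), Adipoq (adipocyte) and Retnlg (neutrophil) (bottom), with symbols for the arrays that stood apart. Hp is high on newborn KO 1, 2 and 6 and on young WT 2, KO 2 and KO 4, where Alb, Scgb3a1 or Adipoq is high too.

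In young hearts A2m was higher in KO than in WT animals, and it was the only 1 of the 10 genes past the threshold, against 0.670% of all genes that rose and 0.351% that fell. Limma called 126 genes higher and 66 lower, a split that was 74 and 105 with median centring and 114 and 161 with quantile normalization. At an unadjusted p under 0.05, 2 of the 10 were higher (A2m and Serpina3n), against 10.4% of all genes. The median difference of the 10 was 0.09 and that of all genes 0.03.

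A2m was 3.6, 4.30, 4.21, 4.11, 4.42 and 4.15 on the young WT arrays and 4.46, 5.30, 4.47, 4.44, 5.03 and 5.06 on the young KO arrays. The lowest KO array lay just above the highest WT array, and separation in that direction held for 0.420% of all genes. The difference was 0.66 (SE 0.15, 1.58-fold, 95% interval 0.35 to 0.98, adjusted p = 0.0335). The call was lost with median centring (0.59, adjusted p = 0.0526), quantile normalization (0.65, adjusted p = 0.0503), all probe sets in the fit (adjusted p = 0.0588), a fit of the 12 young arrays alone (adjusted p = 0.179), and without any one of young WT 1, 3, 4 and 6 or young KO 2, 5 and 6 (0.55 to 0.68, adjusted p from 0.0528 to 0.0923). Without the 3 young arrays with the highest adipocyte means it was 0.66 (adjusted p = 0.0617). The 3 highest A2m values in KO hearts were on arrays 2, 6 and 5, whose atrial marker means were 9.55, 8.06 and 9.57, against 8.64, 6.69 and 8.79 on arrays 1, 3 and 4. The 6 KO arrays also had higher adipocyte means than all WT arrays but number 2. With the atrial marker mean as a covariate, the A2m difference over the 12 young arrays was 0.45 (adjusted p = 0.517).

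Serpina3n was 3.42, 6.65, 4.76, 3.98, 5.14 and 4.53 on the young WT arrays and 6.06, 6.48, 5.20, 5.84, 6.51 and 5.43 on the young KO arrays. The 6 KO arrays were above all WT arrays but number 2, the array with the highest adipocyte marker mean and, among young arrays, the highest airway marker mean. The adipocyte marker mean separated the arrays in the same way, at 5.03 to 7.76 in KO and 4.82 to 5.02 in WT hearts without number 2, and the fibroblast and atrial medians were higher in KO hearts too. The difference was 1.17 (SE 0.42, 2.25-fold, adjusted p = 0.170). Without young WT 2 it was 1.55 and passed the test (adjusted p = 0.0170), and without the 3 arrays with the highest adipocyte means it was 1.43 (adjusted p = 0.104). With the atrial marker mean as a covariate it was 0.26 (adjusted p = 0.858) over the 12 young arrays.

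Hp showed no such separation at P30: it was 3.10 to 6.98 (median 3.84) in WT and 3.33 to 6.67 (median 4.39) in KO hearts. Its 3 highest values, 6.98, 6.67 and 5.65, were young WT 2, KO 2 and KO 4, the arrays with the highest adipocyte means. The difference was 0.56 (SE 0.58, 95% interval -0.63 to 1.75, adjusted p = 0.708), and it was -0.59 with the atrial marker mean as a covariate. Lcn2 differed by 0.27 (SE 0.28, 95% interval -0.31 to 0.85, adjusted p = 0.709). The calgranulins and granule genes were close between genotypes in young hearts, at 0.0096 for S100a8 (95% interval -0.33 to 0.35), -0.0018 for S100a9 (-0.29 to 0.29), -0.03 for Ngp (-0.44 to 0.37), 0.08 for Ltf (-0.69 to 0.85) and -0.12 for Camp (-0.31 to 0.06). Saa3 differed by 0.10 (-0.17 to 0.36).

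The KO difference itself was compared between ages, as young minus newborn, and 0 of the 10 genes passed, while limma called 0.0106% of all genes lower and 0% higher. Lcn2 had an interaction of -0.90 (SE 0.39, adjusted p = 0.350), Ngp of -0.65 (SE 0.27, adjusted p = 0.342) and A2m of 0.52 (SE 0.22, adjusted p = 0.338), the 3 with an unadjusted p under 0.05. A2m thus passed the test at P30 and missed it at birth without a tested difference between the ages.

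Other genes of neutrophils and of the pathway were counted from lists. For all their age counts, 19.2% of all genes rose and 27.9% fell in WT, and 34.0% and 25.0% in KO hearts. With centring 9842 of the 18819 genes rose and 2989 fell in WT, and 10029 and 3011 in KO hearts. With quantile normalization these were 4445 and 4363, and 4249 and 4404. Of 31 other neutrophil granule genes measured, 0 passed the KO test at either age. With age, 6 rose and 5 fell in WT and 9 rose and 5 fell in KO hearts, with medians of 0.0042 and 0.12. Median centring gave 15 and 3 in WT and 17 and 4 in KO hearts, and quantile normalization 5 and 5, and 6 and 8. Those that fell in both were Stfa1 (-1.64 in WT and -1.63 in KO hearts) and Stfa3 (-0.47 and -0.37), stefin inhibitors of cathepsins, Retnlg (-0.65 and -0.94), a resistin-like protein of neutrophils, the granule protein Olfm4 (-0.62 and -0.71), and the collagenase Mmp8 (-0.34 and -0.76). With centring Stfa3 (-0.21 and -0.19) in both genotypes and Mmp8 in WT hearts (-0.09) missed the threshold. The largest rises were Lrg1, a secreted glycoprotein (2.47 and 2.36), Lyz2, the lysozyme of macrophages and neutrophils (2.16 and 2.06), and Cybb, an oxidase subunit of both cell types (0.69 and 1.00). Among 9 neutrophil markers measured, 2 fell (Retnlg and Mmp8) and 0 rose in each genotype, with 1 rising and 1 falling in WT and 1 and 2 in KO hearts after centring, and with 3 and 5 falling after quantile normalization, and their mean level on newborn arrays was 3.29 to 3.76 (WT) and 3.51 to 4.24 (KO), and on young arrays 3.24 to 3.46 (WT) and 3.32 to 3.62 (KO). Over the 24 arrays Mpo was 2.93 to 4.15, Elane 3.21 to 3.89 and Cxcr2 2.39 to 3.15, whereas Pglyrp1 was 4.11 to 9.09. Of the 9 neutrophil markers, 1 was under the 95th percentile of olfactory receptors on all arrays. The 2 of 9 neutrophil markers that fell compare with 27.9% of all genes in WT and 25.0% in KO hearts. Of the macrophage and monocyte markers, 11 of 11 were higher in young WT hearts (median 1.06), against 19.2% of all genes. In young KO hearts 10 of 11 were higher (median 1.23), against 34.0% of all genes.

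**Figure D4:**
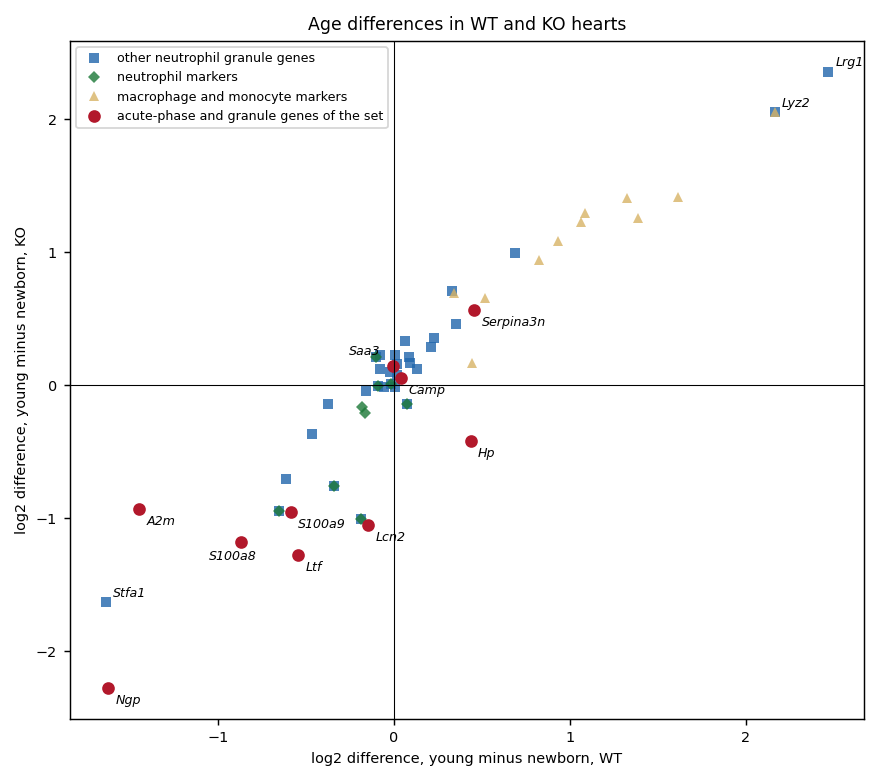
Age difference (young minus newborn, log2) in WT hearts on the horizontal and in KO hearts on the vertical axis, for the 10 genes (red, named), other neutrophil granule genes, neutrophil markers and macrophage and monocyte markers; 1 point per gene. Ngp, S100a8, S100a9, A2m, Ltf and Stfa1 are below 0 on both axes and the macrophage markers are above 0.

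Of 22 genes of neutrophil surface and trafficking, 4 rose and 2 fell with age in WT and 12 rose and 3 fell in KO hearts, and 0 passed the KO test at either age. With centring the age counts were 11 and 2, and 13 and 2, and with quantile normalization 6 and 3, and 6 and 5. In KO hearts quantile normalization ended the rises of Ceacam10, Cxcl1, Cxcl2, Cxcl3, Cxcl5 and Il1r2, which were then 0.02 to 0.20. The rises included the platelet chemokine Ppbp (2.14 in WT, 0.85 in KO hearts) and the integrin subunits Itgb2 (0.45 and 0.83) and Itgam (0.58 in both). The falls included Hdc, histidine decarboxylase (-1.20 and -1.31), and the endothelial selectin Sele (-0.93 and -0.70).

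Of 23 other acute-phase genes measured, 5 rose and 2 fell with age in WT and 7 rose and 3 fell in KO hearts, with centring 10 and 2, and 12 and 2, and with quantile normalization 5 and 2, and 5 and 4. Ceruloplasmin (Cp, 1.77 and 1.45), the lipopolysaccharide co-receptor Cd14 (1.47 and 1.12) and the metalloreductase Steap4 (0.78 and 0.79) rose along with Lrg1 in both genotypes, and the lipopolysaccharide-binding protein Lbp (-1.08 and -0.77) and the metallothionein Mt2 (-1.32 and -0.96) fell. Between genotypes, 1 of 23 passed in young hearts, Mt2 (0.84, SE 0.20, adjusted p = 0.0365, and 0.0539 with a variance trend), and 0 in newborn hearts.

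Among 28 inducers of the response (IL-6 and IL-1 family cytokines, their receptors and factors), 12 rose and 4 fell with age in WT hearts. In KO hearts 14 rose and 3 fell. Of all genes 19.2% rose and 27.9% fell in WT, and 34.0% and 25.0% in KO hearts. With centring the inducer counts were 20 and 1, and 17 and 0, and with quantile normalization 11 and 2, and 10 and 1. The factor Cebpb rose by 1.27 and 1.45, the NF-kB cofactor Bcl3 by 1.10 and 1.17, and Stat3 by 0.36 and 0.44. Il1b rose by 0.59 and 0.28 and Il6 by 0.24 in both, but with quantile normalization Il6 (0.16 and 0.03) and, in KO hearts, Il1b (0.12) missed the threshold. Ngp, S100a8 and A2m fell over the same interval. Between genotypes, 1 of 28 passed in young hearts, the NF-kB inhibitor Nfkbia (0.42, SE 0.10, adjusted p = 0.0404), and 0 in newborn hearts. Nfkbia missed the threshold with centring (0.35, adjusted p = 0.119) and with quantile normalization (0.37, adjusted p = 0.0670).

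Of 12 receptors of the encoded proteins, 0 passed the KO test at either age. With age, 5 rose and 5 fell in WT and 5 rose and 4 fell in KO hearts, with centring 6 and 3 in both, and with quantile normalization 5 and 5, and 4 and 4. Slc22a17, described as a lipocalin-2 receptor, fell by 2.33 and 2.24. Mcam, a calgranulin receptor of endothelium, fell by 1.16 and 0.92 and Ager, the RAGE receptor, by 0.42 and 0.34 (with centring -0.16 and -0.17, past no threshold). Cd163, the macrophage receptor for haptoglobin bound to haemoglobin, rose by 1.61 and 1.42, and Tlr4, a calgranulin receptor, by 0.73 and 0.70.

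The genes whose pattern was most like that of each member were ranked by Pearson's r of deviations from the group means over the 24 arrays, which share tissue pieces, RNA and array. For Hp they were Pck1 (0.92), Adipoq (0.90) and Plin1 (0.89), 3 genes that adipocytes express, with r of 0.88, 0.84 and 0.83 without young WT 2. For Ltf they were Gm12695, Tspan1 and Cfap206 (0.96 for each), with 0.82, 0.81 and 0.81 without newborn KO 6. For Ngp they were Elovl2 (0.77), Abcc2 (0.75) and Slco1b2 (0.74), transcripts abundant in liver, with 0.70, 0.67 and 0.65 without newborn KO 2. For Lcn2 they were Bcl6 (0.87), Cyp4b1 (0.85) and Sult1a1 (0.83), for Serpina3n Pamr1, Stum and Mpzl2 (0.83 for each), and for A2m Vsnl1 (0.74), Sox5 and Cacna2d2 (0.71 for both). The first were Ybx3 for S100a9 (0.82), Reep6 for S100a8 (0.73), Pkhd1 for Camp (0.80) and Rab38 for Saa3 (0.76). Among the 45 pairs of the 10 genes r ran from -0.43 to 0.72 with a median of 0.21, and the highest pairs were Serpina3n with Hp (0.72) and S100a8 with S100a9 (0.70).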

How the data were processed

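Expression was measured on 24 whole-transcript Affymetrix mouse arrays. RMA was run by the authors before deposit, so the deposited unit is the log2 signal. Tools in the submitters' processing notes are oligo 1.22, limma 3.14 and R 2.15. Array medians ran from 4.24 to 4.50, and 0 of 276 array pairs were identical. The number of arrays limits the precision. No batch or scan date was given, and sex is not given per sample. Samples were grouped from their annotation. Of 35017 probe sets, 21118 had 1 gene symbol, 1735 several and 12164 none, and 21085 of the 21118 matched the GRCm38.p6 annotation by Entrez identifier. The brightest probe set stood for each of 18819 genes. Groups were compared with limma 3.58.1 in R 4.3.3, with 1 mean per group, moderated variances (20 residual degrees of freedom) and Benjamini-Hochberg adjustment over all genes, at an adjusted p under 0.05. All adjusted p-values are from this fit unless another setting is named. p-values measure the spread between these samples. The procedure was tested on simulated data. The 10 genes and all lists were chosen with earlier results of these data known. Named genes were the 10, up to 4 called genes per list and comparison, genes whose role the text needed, and the 3 most alike in pattern. Alternatives were a filter at the 30th percentile of signal, centring, quantile normalization, a variance trend, array weights, other probe set rules, the replicate block, fewer arrays and leaving out each array, and 2 that leave out arrays with transcripts of other tissues, added after the data were seen. The targeted genes are not reported here, so the labels were not checked against them.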

Additional observations from a re-analysis of the deposited data

Results flagged for a closer look

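Over 40 combinations of gene and group, 3 had an array farther from its neighbour than Dixon's criterion for 6 samples allows, and chance flags about 1 in 20 groups. They were Ltf on newborn KO 6 at 7.47, Hp on young WT 2 at 6.98 and Lcn2 on newborn WT 4 at 5.96. Newborn KO 6 also had the highest airway marker mean, 8.16, and an adipocyte marker mean of 5.59. Young WT 2 had the highest adipocyte marker mean, 8.0, and an airway marker mean of 4.26. The part of these transcripts in the values was not tested.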

How the results depend on the processing

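The 10 genes in 4 comparisons had 1446 values under the alternatives, of which 1379 kept their direction and side of the threshold, 40 changed sign, 15 lost and 12 gained a pass. Of the counts over the 10 genes, that for newborn KO against WT was 0 as reported and 1 (Lcn2) with array weights and without the newborn arrays numbered 4, and 0 to 1 when each array was left out. That for young KO against WT was 1 as reported (A2m), 0 with median centring, quantile normalization, all probe sets, the 12 arrays, the atrial covariate and without the 3 young arrays with the highest adipocyte means, and 0 to 2 when each array was left out. Over all genes, calls in newborn hearts were 31 with array weights, 482 without the arrays numbered 4 and 0 to 73 when each array was left out. In young hearts they were 192 as reported, 19 with the 12 arrays, 9 with the atrial covariate, 123 without the 3 adipocyte arrays, and 108 to 806 when each array was left out, lowest without young WT 1 and highest without young KO 3. For the difference between ages they were 2 as reported, 7 with the signal filter, 1 with median centring or all probe sets, 4 with quantile normalization, 9 with the variance trend, 15 with array weights, 79 without the arrays numbered 4, 0 and 4 without the newborn KO and the young arrays with other tissues' transcripts, and 1 to 24 when each array was left out. Calls for age in KO hearts were 17090 over all probe sets.

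Small differences changed sign. Camp with age in KO hearts was -0.0232 with quantile normalization, and in WT hearts it ranged from -0.00020 to 0.11 when each array was left out. Hp in young hearts was -0.59 with the atrial covariate, with age in KO hearts 0.54 without newborn KO 1, 2 and 6, and with age in WT hearts -0.12 without the adipocyte arrays, where leaving out young WT 2 gave the same value (leaving out each array, -0.12 to 0.65). Lcn2 with age in WT hearts was 0.11 with centring and 0.10 with quantile normalization. Ngp in young hearts was 0.0465 with the atrial covariate (leaving out each array, -0.0879 to 0.0233). S100a8 in young hearts was -0.0588 with centring, -0.0651 with quantile normalization, -0.0132 with array weights and -0.0124 without the adipocyte arrays (leaving out each array, -0.0557 to 0.0721), and S100a9 was 0.21 with the atrial covariate (leaving out each array, -0.0759 to 0.0724). Saa3 in newborn hearts was 0.0197 with quantile normalization and 0.0387 without the arrays numbered 4 (leaving out each array, -0.15 to 0.0314). With age it was -0.0536 with quantile normalization in KO hearts, and in WT hearts 0.25 with centring, 0.0062 with array weights and 0.000061 without the arrays numbered 4 (leaving out each array, -0.0683 to 0.0486). The cause of these changes was not tested.

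Same-numbered arrays of 2 groups had deviations that correlated from -0.44 to 0.64. The labels give no pairing, these values cannot decide whether the numbers pair the samples, and the main fit treated them as unpaired. With the replicate block 1 gene was called for the difference between ages, 203 in young and 0 in newborn hearts, and the 40 calls of the 10 genes in 4 comparisons were unchanged. It ended the calls of Nfkbia in young hearts (adjusted p = 0.0576) and of Mmp8 with age in WT hearts (adjusted p = 0.0635). Signals near the floor limit Saa3, and the young values of Ngp, Ltf and S100a8, and, outside the 10 genes, Mmp8 and the young values of Retnlg.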
